A study of Mus musculus with 8 samples.

Results

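The 200 ELA-peak genes were the genes whose association with Argonaute (Ago), relative to their total RNA, stood highest in epiblast-like aggregates (ELA) over the other stages of neural differentiation of mouse embryonic stem (ES) cells. They were 200 of 16494 gene names, measured by 224 of 20885 probes. Ago enrichment (E) of a gene was log2 of its signal in RNA immunoprecipitated with Ago (Ago-RNA) over its signal in total RNA, taken per stage, minus the median of that ratio over the probes kept, so that 0 was the level of the median probe. The score of a gene was its E in ELA minus the largest of its E values at the other stages, and the members were the genes with the 200 highest scores. The members were thus chosen by E at all 4 stages, and their scores and E values are given as descriptions. Members scored between 1.20 and 2.88, with a median of 1.51. The members ranked 199 and 200 (ENSMUST00000118424 and A_55_P2102210) and the genes ranked 201 and 202 (Agrp and 2610034M16Rik) all scored 1.20, so the limit at 200 falls in a continuous series of values.

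Cells of the E14Tg2A line, a mouse ES line of strain 129/Ola, were taken undifferentiated in serum with LIF (ES, 0 days in vitro), after 2 days as floating aggregates in defined medium without LIF (ELA), after 4 further days attached to laminin as neural progenitor cells (NPC, day 6), and after 4 days without the B27 supplement as neural precursors (NPC/Neu, day 10). At each stage 1 array took Ago-RNA, precipitated from cytosol with a pan-Ago antibody, and 1 array took total RNA. Each array held RNA pooled from 3 independent experiments of 1 cell line. All 8 arrays lay on 1 slide, and no condition had a replicate array, so no p-value is given. The error given here is the spread of 232 probes printed in 10 spots each, which had an SD of 0.11 for E in ES, 0.25 in ELA, 0.16 in NPC, 0.15 in NPC/Neu and 0.30 for the score. It covers noise between spots of an array, not between cultures or immunoprecipitations. In such bulk samples fewer cells of a type and less RNA per cell cannot be told apart.

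Argonaute proteins carry a microRNA (miRNA) whose bases 2 to 8, the seed, pair with matching sites, mostly in the 3′ untranslated region (UTR) of a messenger RNA (mRNA). An mRNA held by this complex is translated less and decays faster. In ES cells and the early epiblast, the miR-290 and miR-302 families are among the most abundant miRNAs and share the seed AAGUGCU. Only listed members of these families were looked up. The 5 with a mature sequence in RefSeq are shown with the seed in capitals, because the site for this seed was frequent among the coding members described further on:

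miR-291a-3p: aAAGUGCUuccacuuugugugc

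miR-294-3p: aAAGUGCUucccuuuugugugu

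miR-295-3p: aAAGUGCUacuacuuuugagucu

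miR-302b-3p: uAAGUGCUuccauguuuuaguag

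miR-302d-3p: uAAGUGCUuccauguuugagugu

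The stage labels were checked in total RNA against marker lists. Levels are log2 signals minus the median of the array. The naive pluripotency list, with 11 genes kept, had median levels of 2.57 in ES, 0.04 in ELA, -3.03 in NPC, then -1.36 in NPC/Neu. The epiblast marker Fgf5 was at 0.58 in ES and 3.55 in ELA. Pax6, a neural progenitor marker, was at -3.09 in ES, -3.30 in ELA, 0.03 in NPC, then 0.69 in NPC/Neu. The fibroblast list stayed at median levels between -2.45 and -1.52, and that of extraembryonic endoderm between -1.80 and 0.06. The trophoblast list, with 6 genes kept, was at 2.62 in ES, 1.65 in ELA, -0.48 in NPC, then -1.91 in NPC/Neu. In ELA, Krt8 and Krt18 were at 3.05 and 5.44, Ascl2 at 0.24, and Esx1 and Prl3d1 at -2.70 and -3.27. Gcm1, the remaining gene, was at 3.26, from probes that do not lie in the Gcm1 gene. The part of this list in the members' values was not tested. The ES Ago-RNA array was the brightest, with a median signal of 5176 over the probes kept, against a range of 1618 to 2888 on the other arrays. The part of this difference in E was not tested.

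Ago enrichment in ELA was itself high in a minority of the members. E in ELA had a median of 0.02 over the 200, with 97 below 0 and 64 at 1 or more. An E of at least 1 in ELA was reached by 6.36% of all genes kept. A score of at least 1 was reached by 2.04% of them and a score above 0 by 32.7%, and both hold for every member by the rule. The median E of the members was -1.91 in ES, -1.70 in NPC, then -2.23 in NPC/Neu. The members' highest value was thus near the median of all genes, and what set most of them apart was a low E elsewhere. The stage that came next was NPC for 97 members, ES for 94 and NPC/Neu for 9.

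Low E elsewhere raises the score by construction, since the largest E outside ELA is the term subtracted, and the counts that follow are descriptions. Of the 392 genes kept whose largest E outside ELA was -1.5 or less, 368 (93.9%) had a score above 0, with a median score of 0.82. Of the 10726 genes whose largest other E was above 0, 12.9% had a score above 0, with a median of -0.56. E was spread less in ELA than elsewhere over all genes, with an SD of 0.65 against 1.08 in ES, 0.81 in NPC, then 1.08 in NPC/Neu. There were 103 members among the 392 genes and 40 among the 10726.

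Sorted first by a run of purines (A or G) in a probe and then by gene name, the members fell into 4 kinds. This sorting was made after their values were seen. The first kind held 69 genes with a protein-coding name in RefSeq, and the second 64 names of any sort with a probe that holds a run of 20 or more purines (A or G) in a row. The third held 7 genes of the mitochondrial genome, and the fourth the 60 that remained, of which 17 carried a probe name alone and 13 a Rik name. Among all genes kept these kinds held 12491, 122, 12 and 3869 names. The kinds differed in level. Coding members had a median E of 1.65 in ELA and were near 0 elsewhere, with medians of -0.02 in ES, -0.12 in NPC, then -0.49 in NPC/Neu. Members with purine-run probes had a median E of -0.84 in ELA and -2.37 in ES, -2.54 in NPC, then -3.08 in NPC/Neu. None of these 64 reached an E of 1 in ELA, against 53 of the 69 coding members.

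**Figure D1:**
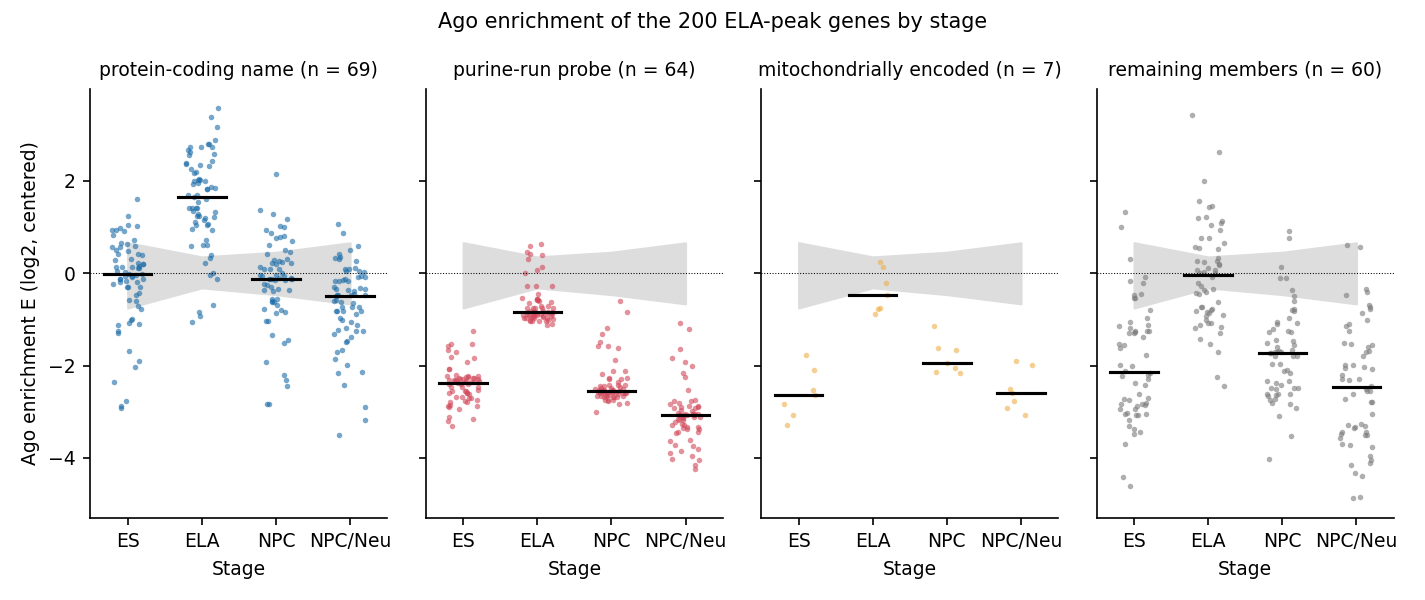
Ago enrichment (E, log2 of Ago-RNA over total RNA, centered on the median probe) of the 200 ELA-peak genes at each stage, in 4 panels by kind of member. Each point is 1 gene on 1 pair of arrays, black bars are medians and the grey band spans the quartiles of all 16494 genes kept. Coding members stand above the band in ELA (median 1.65), while purine-run and mitochondrial members lie below 0 in most cases and are least low in ELA.

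Among the coding members, Gnb5 had the highest score, 2.70. It encodes the G-protein subunit Gβ5. Its E was 0.48 in ES, 3.18 in ELA, 0.02 in NPC, then -0.82 in NPC/Neu. The Ago-RNA level of Gnb5 went from -3.42 in ES to -0.55 in ELA, while its total RNA level was -3.68 and -3.58. In NPC its total RNA was higher, at -1.71, and its Ago-RNA lower, at -1.80. The probe crosses an exon junction in the coding sequence of Gnb5 (mm9, chromosome 9, 75191364 to 75192299, plus strand). A second member, listed as ENSMUST00000098556, has its probe in the 3′ UTR of the same gene (75193618 to 75193677), and its E was 0.99 in ES, 3.43 in ELA, 0.14 in NPC, then 0.56 in NPC/Neu. This mRNA thus counts as 2 of the 200 names, and as both are members, ELA is the highest stage of both by the rule.

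Hddc3, an enzyme that removes phosphate from nucleotides, had E values of 0.39, 2.63, 0.19 and -0.74 in ES, ELA, NPC and NPC/Neu. The corresponding E of 9530068E07Rik was 0.51, 2.73, -0.06 and -0.73. Snapc1, a subunit of the complex that activates transcription of small nuclear RNA genes, had -0.02, 2.88, 0.77 and -0.57. In each of these 3 genes total RNA moved by 0.58 or less between ES and ELA, and the Ago-RNA level rose by more than 2 log2 units. Their changes in Ago-RNA were 2.14 for Hddc3, 2.60 for 9530068E07Rik and 2.38 for Snapc1.

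Some coding members that encode mitochondrial proteins follow. Prdx3 and Glrx5 were named after their values were seen, and the share of such genes among all genes kept was not counted. Prdx3, a mitochondrial peroxiredoxin, had an E of 0.42 in ES, 2.36 in ELA, -0.03 in NPC, then 0.04 in NPC/Neu. Glrx5, which takes part in iron-sulfur cluster assembly, had -0.01, 1.86, -0.13 and -0.38. Of the 75 mitochondrial ribosomal protein genes kept, 4 were members (5.33%, against 1.21% of all genes kept): Mrpl14, Mrpl32, Mrps18b and Mrps22. The list as a whole had a median score of 0.01, beside -0.28 for all genes. Mrpl14 had E values of -1.08, 1.04, -0.77 and -1.26, and Mrpl32 had 0.72 in ELA beside -0.79 in NPC, its next highest stage. The list of nuclear genes of oxidative phosphorylation had 94 genes kept and no member. Its median E was also least low in ELA, with -1.25, -0.28, -0.36 and -0.59. The 105 cytosolic ribosomal protein genes kept held no member either, with -1.57, -0.27, -0.48 and -0.88.

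The coding members that follow were chosen from several lists or after their values were seen, and form no group. Cdkn1a, the cell cycle inhibitor p21, had an E of 0.91 in ES, 2.74 in ELA, 1.00 in NPC, then -0.47 in NPC/Neu, and its 2 probes scored 1.66 and 1.76. Its Ago-RNA level rose from -0.85 to 1.21 between ES and ELA, beside total RNA at -1.54 and -1.38. Casp2, an initiator caspase, had E values of -0.04, 1.30, -0.12 and -0.17. Rab13, a small GTPase of membrane traffic, had -0.05, 1.83, -0.15 and -1.06, with probe scores of 1.80 and 1.96. The name Arl16, another small GTPase, had 0.64, 2.26, 0.23 and 0.43, from a probe that lies outside annotated genes and not in the gene of that name. Msl3, a subunit of the MSL histone acetyltransferase complex, had 0.58, 2.43, 0.51 and 0.34, and the deacetylase Sirt7 had 0.13, 1.95, -0.11 and -0.72. Zfp768 and Zfp385a, of the 395 zinc finger genes kept, had E values in ELA of 2.58 and 2.73, beside 1.06 in NPC/Neu and 1.37 in NPC, their next highest stages. That list held 3 members (0.76%). Tmem85 (now Emc4, of the ER membrane complex) and Tmem74 had E values in ELA of 2.03 and 1.70, beside 0.46 or less at the other stages.

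**Figure D2:**
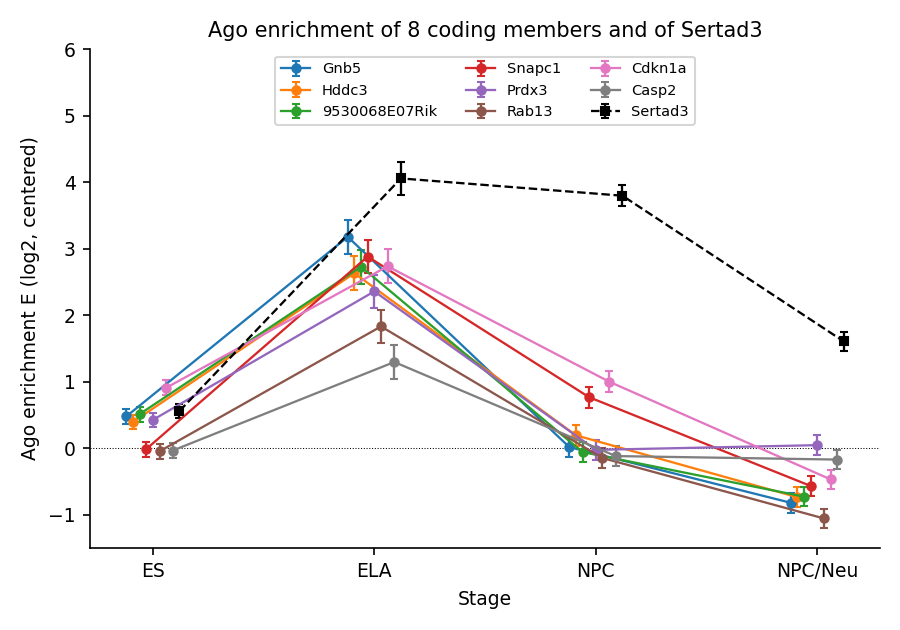
Ago enrichment (E, log2) at each stage of 8 coding ELA-peak genes, and of Sertad3 as a dashed line. Points are single values, joined to guide the eye and shifted sideways for legibility, and error bars are the spot SD at that stage (0.11 to 0.25). The 8 members peak in ELA, between 1.30 for Casp2 and 3.18 for Gnb5, whereas Sertad3 is at 4.06 in ELA and 3.80 in NPC.

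Sertad3, a transcriptional coactivator with a SERTA domain and the gene proposed to mark this set, was not a member. Its E rose from 0.56 in ES to 4.06 in ELA and stayed at 3.80 in NPC before 1.60 in NPC/Neu, so its score was 0.26 and its rank 3016. The difference of 0.26 between ELA and NPC was smaller than the spot SD of the score. Its Ago-RNA level was -0.36 in ES, 3.73 in ELA, 3.53 in NPC, then 0.27 in NPC/Neu, while total RNA stayed between -1.18 and -0.16. The other 4 SERTA domain genes kept had E values in ELA of -0.11 (Sertad1), 0.73 (Sertad2), 0.36 (Sertad4) and 0.04 (Cdca4), and none was a member. With E set to equal spread over genes at each stage, the score of Sertad3 was 1.42.

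The 3′ UTRs of the coding members often held a site for the miR-290/miR-302 seed. The rule did not use sequence. The search was for the reverse complement of bases 2 to 8, AGCACTT, on the transcript strand, in the longest annotated 3′ UTR of each gene (GENCODE vM1). Of the 66 coding members with an annotated 3′ UTR, 32 (48.5%) held the site, and 6 held it more than once. Of the other 12039 coding genes kept, 1921 (16.0%) held it. The members' 3′ UTRs were shorter, with a median of 802 bases against 1131. At 3′ UTR lengths of 1000 to 2000 bases, 14 of 15 members held the site, beside 16.1% of 3160 other genes. From 500 to 1000 bases the counts were 9 of 22 members and 7.62% of 2427 other genes. Below 500 bases they were 4 of 21 members and 2.58% of 3095. At 2000 bases or more the shares lay closest as a ratio, with 5 of 8 members and 34.2% of 3357 other genes.

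For no other seed examined was the share in members above that in other genes by as much. The site GCACTTT of the miR-17 family, which shares 6 of its 7 letters with AGCACTT, was in 13 of the 66 members (19.7%) and 13.6% of the other genes, and 11 of those 13 also held the miR-290/miR-302 site. Sites for let-7a-5p (CTACCTC) were in 7.58% of members and 10.5% of other genes, for miR-30a-5p (TGTTTAC) in 6.06% and 14.9%, and for miR-125b-5p (CTCAGGG) in 15.2% and 15.1%. For the remaining 6 seeds examined, the share in members lay between 1.52% and 12.1%, and was above that in other genes for miR-26a-5p (TACTTGA) alone, with 10.6% and 10.4%. Some sites were rarer in members, with 4.55% and 13.4% for miR-9-5p and 1.52% and 7.00% for miR-21a-5p. Shares for these other seeds were not split by 3′ UTR length, and the members' 3′ UTRs were shorter. These counts are descriptions, and a match is not evidence of a bound site.

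Sites of 7 coding members are shown as 30 bases of transcript, 5′ to 3′, with the match in capitals. They are from the members named above with the highest scores that hold the site, and from both listed miR-290/miR-302 targets. Of the 2 sites in 9530068E07Rik the upstream one is given. Coordinates are mm9:

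Gnb5, chr9:75193078-75193107, plus strand: ggatctagtctgtcttcagAGCACTTtaaa

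Hddc3, chr7:87490948-87490977, plus strand: gtttagtcgtggaaaataaAGCACTTaggt

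9530068E07Rik, chr11:52220566-52220595, plus strand: ttacattttctaaAGCACTTgactggcatt

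Prdx3, chr19:60940185-60940214, minus strand: tgaagtagcacatagcaccAGCACTTaatg

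Rab13, chr3:90030149-90030178, plus strand: ccaggcttcagtaaacagcAGCACTTagta

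Cdkn1a, chr17:29236754-29236783, plus strand: gtgatcctcagacctgaatAGCACTTtgga

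Cdkn1a, chr17:29237426-29237455, plus strand: tgaataccgtgggtgtcaaAGCACTTagtg

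Casp2, chr6:42231538-42231567, plus strand: atatgtgatataacctagaAGCACTTgtct

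All of these genes had an E in ELA between 1.30 and 3.18. Coding members with the site had a median E in ELA of 2.18 (n = 32) and those without it 1.23 (n = 34), while their median scores were 1.55 and 1.48. Over all coding genes, the share with the site rose with the score, from 12.8% of 2047 genes below -1 to 15.7% of 3917 genes between -0.5 and 0, 35.2% of 91 genes between 1 and 1.5, and 52.9% of 34 genes at 1.5 or more. For the miR-17 site the lowest and the 2 highest of these bins held 12.2%, 15.4% and 17.6%. By E in ELA alone, both sites were more frequent in each higher bin from -1 upward, though not below it. The miR-290/miR-302 site was in 9.75% of genes between -1 and 0 and in 44.9% of the 98 genes at 2 or more, and the miR-17 site in 6.80% and 38.8%. Of the coding genes with an E of at least 1 in ELA, the miR-290/miR-302 site was in 29 of 52 members (55.8%, median 3′ UTR of 821 bases) and in 292 of 843 others (34.6%, median of 1740 bases).

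**Figure D3:**
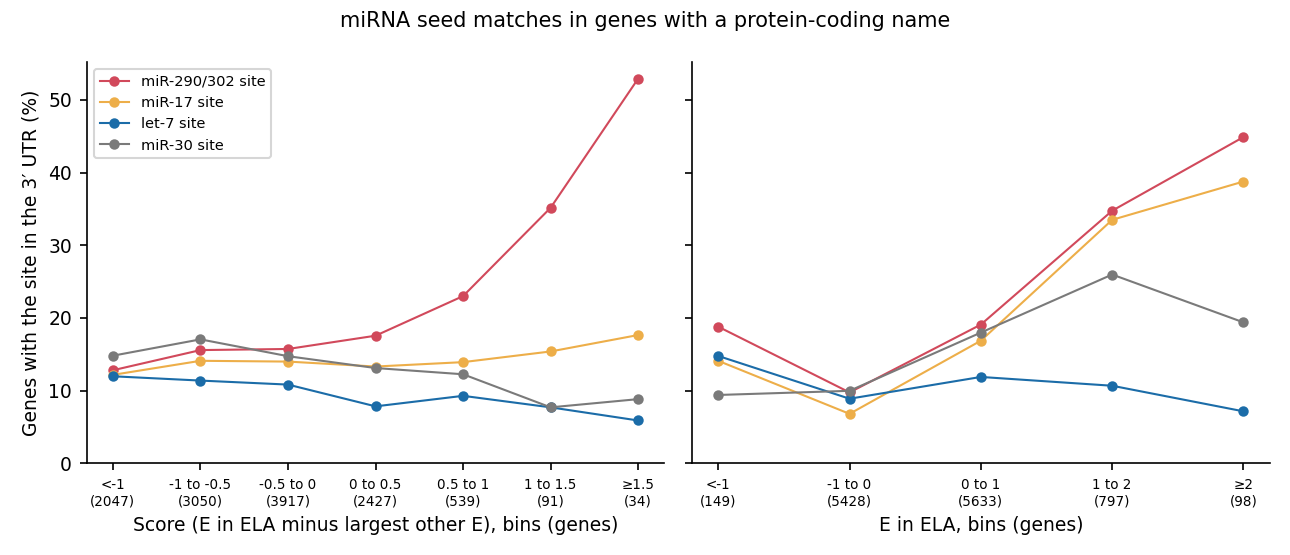
Percentage of genes with a protein-coding name whose 3′ UTR holds a site of 7 bases for the miR-290/miR-302, miR-17, let-7 or miR-30 seed, in bins of the score (left) and of E in ELA (right), with the number of genes in each bin in parentheses. The bins of the score are those of the measure that chose the members. In the left panel the miR-290/miR-302 line reaches 52.9% in the highest bin and the miR-17 line 17.6%, and in the right panel they reach 44.9% and 38.8%.

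The miR-290/miR-302 target list, drawn from commonly cited targets, had 12 genes kept, of which 2 (16.7%, against 1.21% of all genes kept) were members, Cdkn1a and Casp2. Its median E was 0.48 in ES, 1.25 in ELA, 0.69 in NPC, then 0.22 in NPC/Neu. The list had a median score of -0.07, beside -0.28 for all genes kept, and 5 of its 12 genes scored above 0. Outside the members, Ei24 had an E of 1.23 in ELA and a score that ranked 337, and Rbl2, a pocket protein of the cell cycle, had E values of 0.51, 1.99, 1.29 and 0.36. Rhoc and Tgfbr2 were higher in NPC, at 2.60 and 1.79, than in ELA, at 2.49 and 1.28. Lats2, Nr2c2 and Mbd2 were highest in ES, at 0.64, 0.77 and 0.65. The let-7 target list (14 genes kept) had no member and a median E in ELA of 0.33. The list of Ago and miRNA pathway genes (18 kept) had none either, with a median E of 1.27 in ES and 0.80 in ELA. Of the 34 lists examined, 24 held no member. At a share of 1.21% over all genes kept, most of them are too short for a member to be likely, and nothing is read from its absence.

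Purine-run probes formed the second kind of member, and 3 of them that lie outside annotated genes are shown, with the longest purine run in capitals. They are printed in the orientation of the RNA they detect, as in the array files, with mm9 positions:

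A_55_P1989765, chr7:118276941-118277000, minus strand: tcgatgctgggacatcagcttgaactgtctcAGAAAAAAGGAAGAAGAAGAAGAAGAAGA

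A_55_P1962004, chr9:90335307-90335366, minus strand: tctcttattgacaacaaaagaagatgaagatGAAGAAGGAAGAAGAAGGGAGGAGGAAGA

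A_55_P2143516, chr14:27096971-27097030, minus strand: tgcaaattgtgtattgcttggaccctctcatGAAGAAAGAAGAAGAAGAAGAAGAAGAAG

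Over all probes kept, E fell with the length of the purine run, and least so in ELA. At runs under 10 bases the median E was between 0.00 and 0.01 at each stage. At 20 to 24 bases (42 probes) it was -1.20 in ES, -0.34 in ELA, -0.94 in NPC, then -0.93 in NPC/Neu. At 25 bases or more (88 probes) it was -2.30, -0.76, -2.43 and -2.98. Of the 122 genes with a run of at least 20, 64 were members, and 48 of the remaining 58 had a score above 0. Runs of pyrimidines did not go with a low E. At 20 bases or more (51 probes) the median E was -0.05 in ES, 0.06 in ELA, 0.25 in NPC, then 0.11 in NPC/Neu, and none of these genes was a member.

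**Figure D4:**
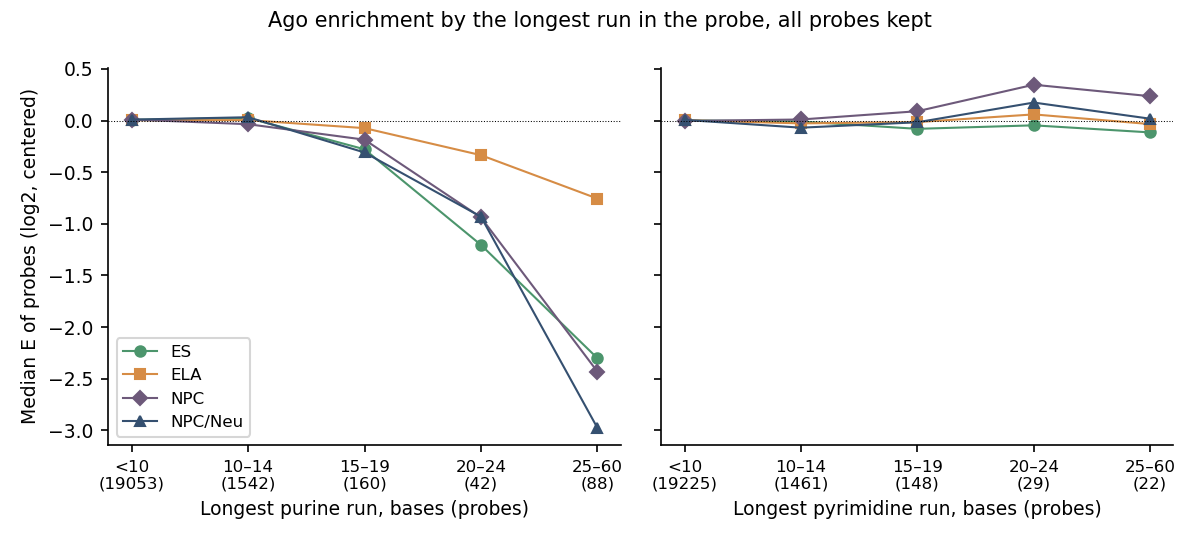
Median Ago enrichment (E, log2) of all probes kept, in bins of the longest run of purines (left) or pyrimidines (right) in the probe, with 1 line per stage and the number of probes in parentheses. At purine runs of 25 bases or more the median is -0.76 in ELA and between -2.98 and -2.30 at the other stages. Pyrimidine runs show no comparable fall.

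Many of these probes cannot be tied to 1 gene. Of the 68 probes of members of this kind, 41 lie outside annotated genes and 13 in an exon of the labelled strand, against 85.4% in exons for all probes kept. Where the name could be checked against the gene at the position, 12 lay in the gene of their name and 5 did not. A stretch of 30 bases or more was shared with a median of 554 places in the genome (up to 91838), and with at least 100 places for 40 of the 68. The probe of Rgs7bp, the member with the highest score (2.88), is a run of 60 purines that shares 30 bases with 29552 places. Its E was -2.74 in ES, 0.46 in ELA, -2.42 in NPC, then -3.95 in NPC/Neu. Gcm1, a trophoblast transcription factor, had 3 probes, none of them in the Gcm1 gene, and their mean E was -2.22, -0.54, -2.36 and -3.21. The solute carrier Slc16a7, by contrast, has a single match in its own coding sequence with a run of 22, and its E was -2.71, -0.45, -2.27 and -2.90. Its Ago-RNA signals were dim, between 58.7 and 123.

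The mitochondrial genome supplied 7 members, ND1, ND2, ND4, ND4L and ND5 of complex I, CYTB of complex III and ATP8 of ATP synthase. Their transcripts are made inside mitochondria. Of the 13 protein-coding genes of that genome, 12 were kept. Each of the 7 probes shares 30 bases with at most 2 places in the genome. The median E of the 7 was -2.65 in ES, -0.48 in ELA, -1.94 in NPC, then -2.58 in NPC/Neu. ND2 had the highest score of them (1.79), with E values of -1.78, 0.13, -1.65 and -1.99. They were among the brightest members, with total RNA levels in ELA of 7.13 for CYTB, 6.35 for ND2 and 5.58 for ND4. Total RNA of ND2 was 6.47 in ES and 6.35 in ELA, while its Ago-RNA level went from 4.48 to 6.33 and back to 3.84 in NPC. Of the 5 other mitochondrial genes kept, COX1, COX2, COX3 and ND3 were also least low in ELA, with scores of 0.41 to 1.12, and ND6, which is read from the opposite strand, was higher in NPC/Neu (2.68) than in ELA (1.68).

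The 60 remaining members had a median E of -2.13 in ES, -0.04 in ELA, -1.73 in NPC, then -2.47 in NPC/Neu. Of their 62 probes, 35 lie outside annotated genes and 11 in introns. The most extreme was 5430431A17Rik, with E values of -1.98, 0.94, -1.79 and -2.29. Rpph1, the RNA of RNase P, whose probe lies antisense to an annotated exon, had -3.38, -1.12, -2.61 and -2.55, and the U1 small nuclear RNA Rnu1b6 had -3.17, 0.01, -1.27 and -2.32. The probe of Rnu1b6 shares 30 bases with 34 places, so its signal cannot be given to 1 copy. All 10 small nuclear and nucleolar RNA genes kept had a score above 0, with a median of 0.84, and 2 were members. The 11 nuclear long noncoding RNAs kept had a median E of -1.76 in ES, -1.26 in ELA, -1.59 in NPC, then -2.84 in NPC/Neu. Of these, 9 also scored above 0, with a median score over the list of 0.38, and none was a member. Probes with a CA repeat of at least 10 bases also ran low, with medians over 67 probes of -0.71, -0.02, -1.12 and -1.51, and 6 of these probes belonged to members. That of A_55_P2047200 is shown with the repeat in capitals:

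A_55_P2047200, chr13:109008802-109008861, minus strand: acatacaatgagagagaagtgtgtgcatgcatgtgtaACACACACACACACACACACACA

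The rise in E from ES to ELA was then split into its Ago-RNA and total RNA parts. Both come from the contrast that chose the members and are descriptions. Ago-RNA rose by at least 1 log2 unit in 119 of the 200 members (59.5%), beside 20.2% of all genes kept. Total RNA fell by at least 1 in 48 members (24%), beside 4.74% of all genes, and rose by as much in 3, beside 6.36%. In 150 members Ago-RNA rose and total RNA fell, in 44 Ago-RNA rose without a fall in total RNA, and in 6 total RNA fell without a rise in Ago-RNA. The Ago-RNA part was the larger in 133 members. Over all 16494 genes kept, counted whether or not E rose, it was the larger in 9441, and total RNA fell in 8419. By kind, the median changes in Ago-RNA and total RNA were 1.53 and -0.29 for coding members, 0.65 and -0.93 for purine-run probes, 1.85 and -0.18 for mitochondrial genes and 1.42 and -0.43 for the remaining members. The Ago-RNA part was larger in 57 of 69 coding members, beside 6580 of the 12491 coding genes kept. It was larger in 22 of 64 members with purine-run probes, beside 64 of the 122 such names kept.

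**Figure D5:**
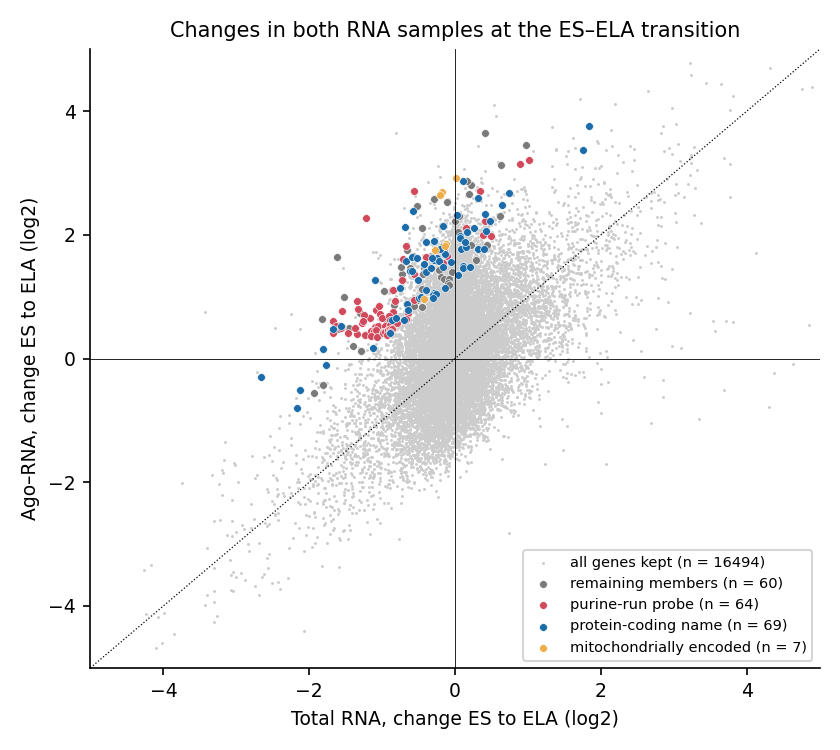
Change from ES to ELA in Ago-RNA (vertical axis) against the change in total RNA (horizontal axis), both in log2 units of signal over the array median, for all 16494 genes kept (grey) and the 200 ELA-peak genes (colored by kind). The dotted line marks equal change, and 11 genes outside the axes, none of them members, are not drawn. Coding members spread upward at little change in total RNA (median 1.53 against -0.29), whereas most members with purine-run probes lie to the left, with a median change in total RNA of -0.93.

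In some coding members it was total RNA that moved. The largest falls from ES to ELA were those of Brp44l (now Mpc1, a subunit of the mitochondrial pyruvate carrier), S100a10 and 1600029D21Rik (now Plet1). Total RNA of S100a10, a partner of annexin A2, went from 3.34 to 0.68 while its Ago-RNA went from 1.23 to 0.93. That of 1600029D21Rik went from -0.55 to -2.71 beside Ago-RNA levels of -0.05 and -0.85, and that of Brp44l from 1.37 to -0.76 beside 2.39 and 1.88. In these 3 genes Ago-RNA did not rise. The largest rises in total RNA were those of Mrgprg (from -2.01 to -0.17), Zfp768 (from -0.33 to 1.43) and Tbx22, a name with a purine-run probe (from -0.66 to 0.35), and their Ago-RNA rose by more.

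From ELA to NPC the members moved back, which the rule fixes, since it places E in NPC at least 1.20 below E in ELA for every member. The counts that follow are descriptions. Ago-RNA fell by at least 1 in 90 of the 200 members (45%), beside 14.7% of all genes kept, and total RNA rose by at least 1 in 54 (27%), beside 11.5%. In Hddc3 the Ago-RNA level did not fall, with 0.31 in ELA and 0.62 in NPC, while total RNA rose from -2.18 to 0.53. In Snapc1 it fell from 0.75 to -1.10, with total RNA at -1.98 and -1.76. The lower E in NPC thus came with more total RNA in some members and with less Ago-RNA in others. The 7 mitochondrial members all lost at least 1 log2 unit of Ago-RNA, with a median change of -2.21.

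Probes of the same gene mostly pointed the same way. Of the 22 members with at least 2 probes kept, all 22 had every probe with a score above 0, and 16 had every probe at 1 or more. Among the 3607 genes with at least 2 probes these shares were 18.1% and 0.58%. Probes of a gene share the arrays and are not replicates, and the members' means were chosen to be high. The lowest probe score was highest in Rab13, NAP112239-1 (1.68 and 1.72) and Cdkn1a. Probes disagreed most in 4933434E20Rik and 9530077C05Rik, with probe scores of 0.39 to 1.71 and 0.22 to 1.54, and in Shc4, with 0.65 and 1.83. The score of a gene is taken after E is averaged over its probes, so it can exceed the score of each probe. Zfp457 scored 1.21, with probe scores of 0.49 and 0.60. The other 178 members rested on 1 probe each.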

How the data were processed

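The deposited files hold spot intensity from Agilent 1-color arrays (SurePrint G3 Mouse, positions in mm9), as the authors' scanner software wrote it (Feature Extraction 10.7.3.1 by the file headers, 9.1 in the submitters' processing notes). The processed intensity used here is background-subtracted and was not normalized between arrays. Well-above-background and outlier flags per spot were also deposited. By the labels, 50 ng of RNA was labeled per array.

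Spots well above background on all 8 arrays with a name other than a bare genome position were kept (23086 of 59305 spots that are not controls). No spot was saturated. Repeated spots were averaged by probe, and probes by gene name. E was centered on the median over probes. Levels differ from E by a constant per stage, between -0.22 and -0.10. There was 1 array per condition, so no test across genes was run. The members and gene lists were chosen with earlier results of these data known.

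Probe sequences were compared with GENCODE vM1 transcripts and the mm9 genome, and 199 of 216 member probes placed on 60 bases matched it exactly. Coding status, current symbols and miRNA sequences were from RefSeq (GRCm38.p6), which held 18 of 20 listed miRNAs. Named genes were Sertad3, the 12 highest scores, the pairs on either side of rank 200, the 2 highest members of each list, and the extremes of total RNA change, brightness, number of probes and probe agreement. The other genes named, the 4 kinds and the seed comparison were chosen after values were seen. Alternatives were normexp in limma 3.58.1 (R 4.3.3), quantile normalization, other filters, scalings and stages. Scripts ran in Python 3.11.15 with numpy 2.4.6 and pandas 2.3.3. The ranking was run on simulated data in which E differed between stages only by noise and in genes raised in ELA Ago-RNA. Such data lack the spread of E of the real arrays, so the run checks the code only.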

Additional observations from a re-analysis of the deposited data

How the results depend on the processing

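No paired analysis was possible because each condition holds 1 array, and for the same reason no array could be left out of a condition. Of the 200 members, 142 to 199 stayed among the 200 highest scores under 10 alternatives, and fewer under 4. Without a filter on dim probes 15 stayed, and 1300 genes scored at least 1 in place of 337. Without ES in the score 114 stayed (690 genes at 1 or more), and without NPC 110 (1102 genes). Against the mean of the other stages, 1359 genes scored at least 1 and the median score of the members was 1.87 in place of 1.51. With E set to equal spread over genes at each stage, an alternative chosen after seeing the data, 104 stayed (515 genes at 1 or more): 60 of the 69 coding members, 14 of the 64 with purine-run probes, 4 of the 7 mitochondrial and 26 of the 60 others. The other median scores were 1.31 to 1.72. The share of coding genes among the 200 with a miR-290/miR-302 site, recomputed after seeing the data, was 44.1% to 50.8% under 11 alternatives and 33.3% without ES, and was not run under both other filters on dim probes. Of 616 values for 44 named genes, none changed sign and 121 moved by more than the spot SD. With 1 array per condition, differences between cultures or immunoprecipitations cannot be told apart from differences between stages.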
